A study of Homo sapiens with 8 samples.

Results

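The genes described here encode enzymes of the tricarboxylic acid cycle and the pyruvate dehydrogenase complex that feeds it. They were chosen by name, as the transcript clusters whose only gene symbol in the platform annotation was one of 10 listed genes. Of the 10 names, 8 had such a cluster (CS, DLAT, DLD, DLST, IDH3A, IDH3B, IDH3G and OGDH), each with a single cluster, among 14884 genes named in this way. FH and PDHX had no cluster with exactly that 1 symbol and were not analysed here.

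RNA came from A172, an established human glioblastoma cell line, and was read on Affymetrix Human Gene 2.0 ST arrays, which measure transcripts by hybridization to oligonucleotide probes. A lentivirus had brought in a short hairpin RNA (shRNA, which degrades its target mRNA) under a doxycycline-inducible promoter, directed at HDAC2 in shHDAC2 cells and a control hairpin in shControl cells, and infected cells were kept as puromycin-selected stable cells with no single clone named. The 4 groups were shHDAC2 cells with doxycycline (shHDAC2 DOX(+)), shHDAC2 cells without it (shHDAC2 DOX(-)), shControl cells with doxycycline (shControl DOX(+)) and shControl cells without it (shControl DOX(-)), with 2 biological replicates each. Doxycycline was given at 2.5 μg/ml for 2 days. Samples were assigned by title and treatment label, which give the same construct. The source-name label instead gives the control virus for both shHDAC2 DOX(-) samples and the HDAC2 virus for both shControl DOX(+) samples.

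In mitochondria, the pyruvate dehydrogenase complex turns pyruvate from glycolysis into acetyl-CoA, and citrate synthase (CS) joins this to oxaloacetate to start the cycle. The NAD-dependent isocitrate dehydrogenase (IDH3A, IDH3B and IDH3G) and the 2-oxoglutarate dehydrogenase complex carry out the oxidative decarboxylations that follow. The pyruvate and 2-oxoglutarate complexes share a plan: an E1 decarboxylase, an E2 core enzyme that carries the intermediate on a lipoyl arm, and an E3 enzyme, DLD, which reoxidizes that arm and is common to both. DLAT is the E2 of the pyruvate complex, and DLST and OGDH are the E2 and E1 of the 2-oxoglutarate complex.

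Below, a signal is a log2 RMA value, a change or difference is the log2 difference between group means (first-named group over the second), and adjusted p-values and 95% intervals are from limma over all genes. For HDAC2, the histone deacetylase the hairpin targets, signals in shHDAC2 DOX(+) arrays were 4.95 and 5.34, against 5.69 and 5.80 in shHDAC2 DOX(-) arrays. In shControl cells they were 6.14 and 6.15 with doxycycline and 6.42 and 6.30 without it. HDAC2 fell upon doxycycline in shHDAC2 cells by 0.60 (adjusted p = 0.0104), and this did not pass without shHDAC2 DOX(+) replicate 1 (-0.40, adjusted p = 0.0689), without shHDAC2 DOX(-) replicate 2 (-0.54, adjusted p = 0.0569), with all its clusters averaged (-0.34, adjusted p = 0.0698) or by the methods' t-test (adjusted p = 0.260). In shControl cells HDAC2 had a change of -0.21 (adjusted p = 0.945), and the difference between the 2 responses was -0.38 and did not pass (adjusted p = 0.234). Over all transcript clusters, the shHDAC2 DOX(-) arrays correlated with the other 6 at 0.950 to 0.954 (Pearson), whereas the shHDAC2 DOX(+) and shControl arrays correlated with each other at 0.982 to 0.986. Array medians lay between 3.638 and 3.676. Of 8 markers of glial cells and glioma lines, all measured, 7 had a mean above the median of all clusters (3.66) and S100B did not (2.96), while GFAP (4.71), OLIG2 (4.20) and SOX2 lay little above it. Of 11 markers of other cell types 7 were measured, and 4 of these were at or below that median. In the shHDAC2 DOX(+) against DOX(-) comparison, 3 glial markers were higher (NES 1.88, SOX2 0.55 and EGFR 0.34) and 2 lower (VIM -0.94 and CD44 -0.69). Of the others, CD68, a lysosomal protein of macrophages, was lower (-3.02) and SYT1, a synaptic vesicle protein, was higher (0.72). In shHDAC2 DOX(-) against shControl DOX(-) cells, 2 glial markers were lower (NES -2.29 and EGFR -0.84) and 1 higher (VIM 0.58). The summed linear signal of the glial markers was 1603 to 1685 in shHDAC2 DOX(+), 2147 to 2252 in shHDAC2 DOX(-), 2143 to 2186 in shControl DOX(+) and 2159 to 2188 in shControl DOX(-) arrays. That of the other-cell markers was 322 to 327 in shHDAC2 DOX(+), 1890 to 1913 in shHDAC2 DOX(-), 439 to 457 in shControl DOX(+) and 408 to 426 in shControl DOX(-) arrays. CD68 alone made up 1811 to 1835 of the sum in shHDAC2 DOX(-) arrays. Without it the other 6 summed to 95.2 to 104 in shHDAC2 DOX(+), 78.0 to 78.8 in shHDAC2 DOX(-), 109 to 120 in shControl DOX(+) and 92.4 to 101 in shControl DOX(-) arrays. Of these 6, SYT1 passed in the comparison of shHDAC2 DOX(-) with shControl DOX(-) cells, where it was lower (-0.75, adjusted p = 0.0028), and PECAM1, VWF, EPCAM, KRT20 and ALB did not pass in either comparison. The part of these marker shifts in the results that follow was not tested, and in bulk RNA fewer cells of a type and less RNA per cell cannot be told apart.

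Upon doxycycline treatment of shHDAC2 cells, 3 of the 8 genes rose (DLAT, DLD and IDH3B), 1 fell (DLST) and 4 did not pass the test (CS, IDH3A, IDH3G and OGDH). The 4 changes lay between 0.59 and 0.87 in size on the log2 scale. In all 4 genes it was the shHDAC2 DOX(-) arrays that lay away from the other 3 groups, and the shHDAC2 DOX(+) values lay near those of shControl cells. These arrays stood apart over all clusters too, and the share of all genes with this pattern was not counted. Between shHDAC2 DOX(+) and DOX(-) arrays, 4460 of all 14884 genes were higher and 4712 lower without overlap, against 4 and 3 of the 8. The share of genes that rose was 37.5% of the 8, against 15.7% of all genes tested, and the share that fell was 12.5%, against 16.1% of all genes. With 8 genes each counts for 12.5%, so the share that fell is near the background. The median change of the 8 genes was 0.01 and that of all genes -0.01, while the median size of the change without its sign was 0.40 for the 8 and 0.24 for all genes. By mean signal, IDH3A lay at percentile 58.9 of all genes and the others between 82.1 (DLAT) and 99.4 (IDH3G). The background thus holds many genes of lower signal, and the 8 were not set against genes of like signal.

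**Figure D1:**
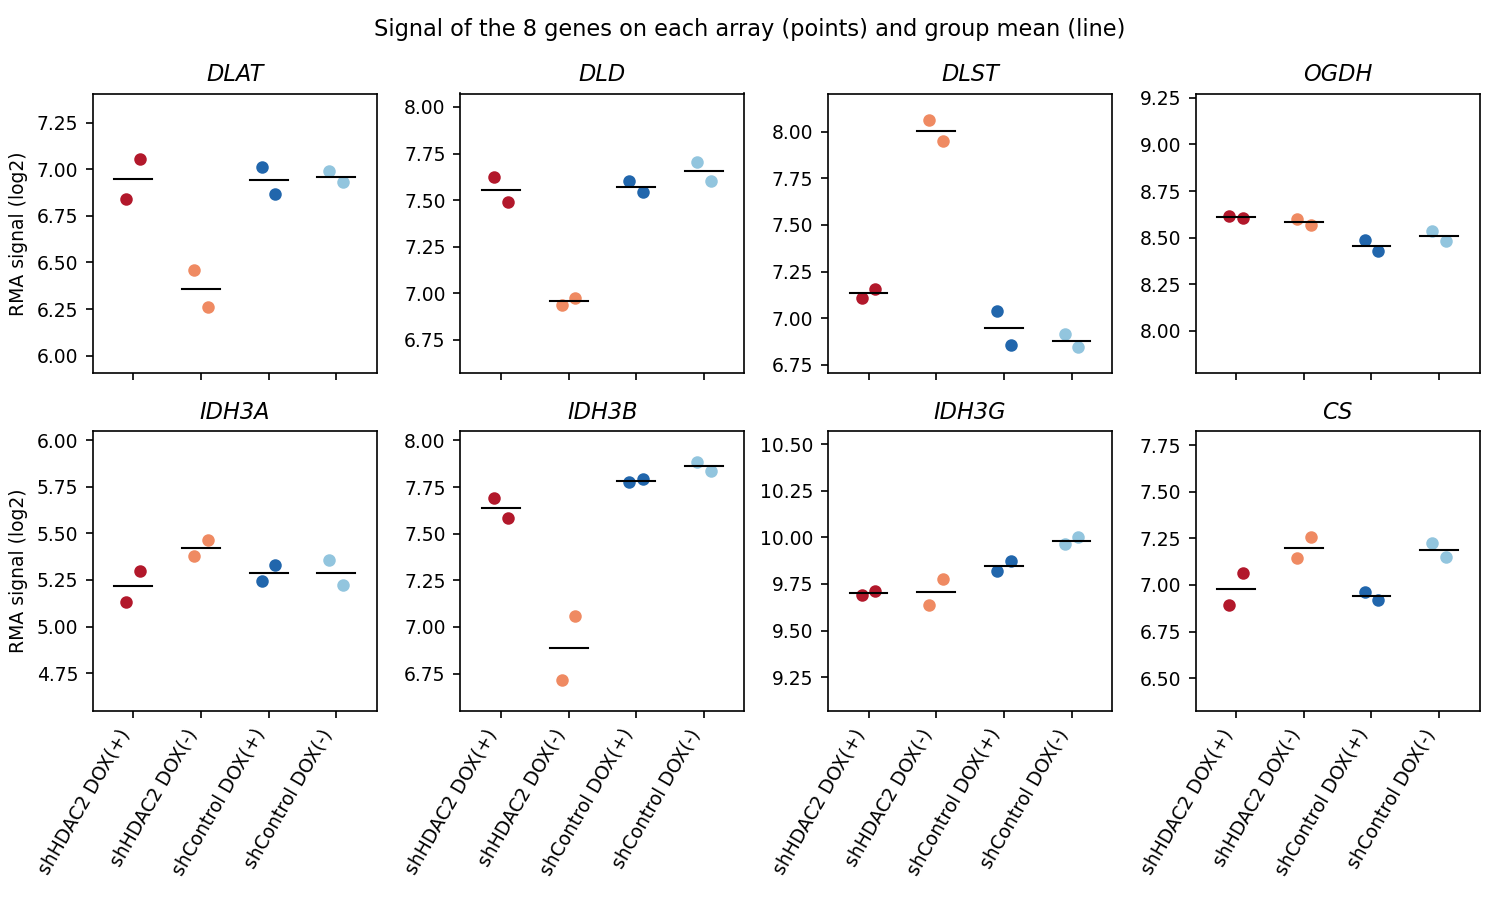
Log2 RMA signal of the 8 genes (vertical axis, each panel spanning 1.5 log2 units) in the 4 groups (horizontal axis). Points are single arrays and lines are means of 2 arrays. The shHDAC2 DOX(-) points lie below all others for DLAT, DLD and IDH3B and above all others for DLST. These arrays stood apart from the other 6 over all clusters too.

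DLAT, the E2 acetyltransferase of the pyruvate dehydrogenase complex, had signals of 6.84 and 7.05 in shHDAC2 DOX(+), against 6.46 and 6.26 in shHDAC2 DOX(-) arrays. Its signals were 7.01 and 6.87 in shControl DOX(+) and 6.99 and 6.93 in shControl DOX(-) arrays. Both shHDAC2 DOX(-) arrays were lower than the other 6, which overlapped one another. DLAT rose upon doxycycline in shHDAC2 cells with a change of 0.59 (SE 0.128, adjusted p = 0.00658). Without shHDAC2 DOX(+) replicate 2 the rise was 0.48 and did not pass the test (adjusted p = 0.0510).

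DLD, the dihydrolipoamide dehydrogenase that serves as E3, had signals of 7.63 and 7.49 in shHDAC2 DOX(+), against 6.94 and 6.98 in shHDAC2 DOX(-) arrays. In shControl cells the signals were 7.60 and 7.54 with doxycycline and 7.71 and 7.60 without it. The shHDAC2 DOX(-) arrays were again the lowest, with no overlap with any other group. DLD rose with a change of 0.60 (SE 0.110, adjusted p = 0.00263), or 1.51-fold.

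DLST, the E2 succinyltransferase of the 2-oxoglutarate complex, moved the other way. It had signals of 7.11 and 7.16 in shHDAC2 DOX(+), against 8.06 and 7.95 in shHDAC2 DOX(-) arrays. The shControl signals were 7.04 and 6.85 with doxycycline and 6.91 and 6.85 without it. The shHDAC2 DOX(-) arrays were the highest and the shHDAC2 DOX(+) arrays lay just above the 4 shControl arrays, with no overlap. Of all 14884 genes, 1888 were higher in shHDAC2 DOX(+) than in the 4 shControl arrays without overlap. DLST fell with a change of -0.87 (SE 0.114, adjusted p = 0.000367), or 1.83-fold, the largest change of the 8 genes. A transcribed pseudogene, DLSTP1, is annotated for DLST, and whether its transcript adds to the DLST signal was not tested.

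OGDH, the E1 that partners DLST, had signals of 8.62 and 8.61 in shHDAC2 DOX(+), against 8.60 and 8.57 in shHDAC2 DOX(-) arrays, while shControl cells gave 8.49 and 8.43 with doxycycline and 8.54 and 8.48 without it. All 8 values lay within 0.185 of each other. Its change in shHDAC2 cells was 0.03 with a 95% interval of -0.20 to 0.26 (adjusted p = 0.878). This interval and that of DLST, -1.13 to -0.61, do not overlap.

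Of the 3 subunits of the NAD-dependent isocitrate dehydrogenase, only IDH3B passed the test. IDH3B, a regulatory and structural subunit, had signals of 7.69 and 7.58 in shHDAC2 DOX(+), against 6.71 and 7.06 in shHDAC2 DOX(-) arrays. Its shControl signals were 7.78 and 7.79 with doxycycline and 7.89 and 7.84 without it. The shHDAC2 DOX(-) arrays were the lowest but differed from each other more than the replicates of any other group did for this gene. IDH3B rose with a change of 0.75 (SE 0.133, adjusted p = 0.0022), or 1.68-fold. Leaving out replicate 1 of shHDAC2 DOX(-) gave a rise of 0.57 and leaving out replicate 2 gave 0.92, and both passed.

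IDH3A, the catalytic subunit, had signals of 5.13 and 5.30 in shHDAC2 DOX(+), against 5.38 and 5.46 in shHDAC2 DOX(-) arrays, and shControl cells gave 5.25 and 5.33 with doxycycline and 5.36 and 5.22 without it. Its change was -0.20 (95% interval -0.47 to 0.06, adjusted p = 0.230). IDH3G, the other regulatory subunit, had 9.69 and 9.71 in shHDAC2 DOX(+), against 9.64 and 9.78 in shHDAC2 DOX(-) arrays. These overlapped, and the change was -0.003 (95% interval -0.25 to 0.24, adjusted p = 0.987). The intervals of IDH3A and IDH3G both lay below that of IDH3B, 0.45 to 1.05. In IDH3G all 4 shHDAC2 arrays were below the 4 shControl arrays, which had 9.82 and 9.87 with doxycycline and 9.96 and 10.00 without it. The share of all genes with this pattern was not counted. For shHDAC2 DOX(+) alone, 2714 of all 14884 genes were below the 4 shControl arrays without overlap.

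CS, which catalyses the first step of the cycle, had signals of 6.89 and 7.07 in shHDAC2 DOX(+), against 7.14 and 7.25 in shHDAC2 DOX(-) arrays. Its shControl signals were 6.96 and 6.92 with doxycycline and 7.23 and 7.15 without it. In both constructs the doxycycline arrays were lower and did not overlap the untreated ones, and neither difference passed the test. Of all 14884 genes, 4712 were lower without overlap upon doxycycline in shHDAC2 cells and 2691 in shControl cells. The change was -0.22 in shHDAC2 cells (95% interval -0.48 to 0.04, adjusted p = 0.187) and -0.25 in shControl cells (95% interval -0.50 to 0.01, adjusted p = 0.910). The difference between both responses was 0.03 (95% interval -0.34 to 0.39, adjusted p = 0.941). Pseudogenes of CS (CSP1, CSP2 and CSP3) are annotated, and whether they add to its signal was not tested.

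The 4 genes that changed are shown with the 250 bases before their annotated start, to set the promoters of the 3 genes that rose together beside that of DLST. The sequences are from RefSeq on GRCh38.p14, written 5′ to 3′ on the strand of the gene. DLD has 2 annotated starts and the upstream one is shown. Capitals mark matches on either strand to the 4 motifs searched: TGCGCA (core of the NRF1 site), CCGGAA (ETS factors), CCAAT and GGGCGG (GC box). None of the 4 lies within another.
DLAT (chr11:112025158-112025407, plus strand): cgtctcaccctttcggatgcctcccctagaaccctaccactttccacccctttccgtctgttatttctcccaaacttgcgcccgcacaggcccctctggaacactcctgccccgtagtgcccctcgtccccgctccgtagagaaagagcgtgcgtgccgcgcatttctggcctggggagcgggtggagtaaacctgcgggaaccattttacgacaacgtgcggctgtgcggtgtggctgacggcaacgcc
DLD (chr7:107890857-107891106, plus strand): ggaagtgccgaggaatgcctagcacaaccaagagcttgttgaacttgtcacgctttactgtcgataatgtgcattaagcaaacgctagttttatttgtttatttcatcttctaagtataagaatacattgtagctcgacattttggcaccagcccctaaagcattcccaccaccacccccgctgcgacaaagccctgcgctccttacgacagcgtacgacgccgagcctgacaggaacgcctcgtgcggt
IDH3B (chr20:2664217-2664466, minus strand): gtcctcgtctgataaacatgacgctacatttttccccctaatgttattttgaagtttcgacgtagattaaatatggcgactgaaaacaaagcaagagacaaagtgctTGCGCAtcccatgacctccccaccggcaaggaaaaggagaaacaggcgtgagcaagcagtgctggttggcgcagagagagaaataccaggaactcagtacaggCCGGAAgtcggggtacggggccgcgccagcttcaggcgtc
DLST (chr14:74881666-74881915, plus strand): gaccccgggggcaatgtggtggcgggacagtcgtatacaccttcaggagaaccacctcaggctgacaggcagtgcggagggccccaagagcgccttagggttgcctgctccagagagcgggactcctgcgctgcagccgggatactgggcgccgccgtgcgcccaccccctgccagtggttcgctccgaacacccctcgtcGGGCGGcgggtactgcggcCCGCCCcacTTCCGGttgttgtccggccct
The windows of DLAT and DLD held none of the 4 motifs. That of IDH3B held 1 TGCGCA and 1 CCGGAA, and that of DLST held 1 CCGGAA and 2 GC boxes. Of 35116 such windows of the same length in the reference, 6.89% held TGCGCA, 14.5% CCGGAA, 32% CCAAT and 42.6% GGGCGG. The GC content was 62% for DLAT, 49.6% for DLD, 51.6% for IDH3B and 69.6% for DLST. Genes that did not pass had such matches too. IDH3A (70% GC) held 1 CCGGAA and 3 GC boxes, and CS (67.6% GC) 1 CCGGAA, 2 CCAAT and 5 GC boxes. IDH3G (70.4% GC) held 1 TGCGCA, 1 CCGGAA and 1 CCAAT. The matches in DLST and IDH3B thus do not set these genes apart from those that did not pass. A match is a string of letters and not a measured binding site, and the windows of DLAT, DLD and IDH3B had no motif of this set in common.

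Doxycycline itself was examined in shControl cells, which by their titles carry the control hairpin. None of the 8 genes passed the test there, with limma calling 0% of all genes in either direction, and the unadjusted p was under 0.05 for 0 of the 8 and for 821 of all genes. The changes of the 8 genes ran between -0.25 (CS) and 0.07 (DLST). DLAT had -0.02 (95% interval -0.31 to 0.27), DLD -0.08 (-0.33 to 0.17) and IDH3B -0.08 (-0.38 to 0.22). By the methods' t-test 1 of the 8 was under 0.05 unadjusted and 0 adjusted, against 927 and 0 of all genes.

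The difference between the doxycycline responses of shHDAC2 and shControl cells was tested directly. It was positive for 3 genes (37.5% of the 8), against 10.2% of all genes, and negative for 1 gene (12.5%), against 10.7% of all genes. IDH3B had a difference of 0.83 on the log2 scale (SE 0.188, adjusted p = 0.0133), DLD of 0.68 (SE 0.155, adjusted p = 0.0135), DLAT of 0.61 (SE 0.181, adjusted p = 0.0429) and DLST of -0.94 (SE 0.162, adjusted p = 0.00333). DLAT did not pass in 6 of the 8 fits with 1 array left out (adjusted p = 0.0662 to 0.140), and DLD did not pass without shControl DOX(-) replicate 1 (0.0537) or without shControl DOX(+) replicate 2 (0.0525). CS, IDH3A, IDH3G and OGDH had differences between -0.20 and 0.14 that did not pass. These values share the shHDAC2 arrays with the comparison above and are not independent of it.

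**Figure D2:**
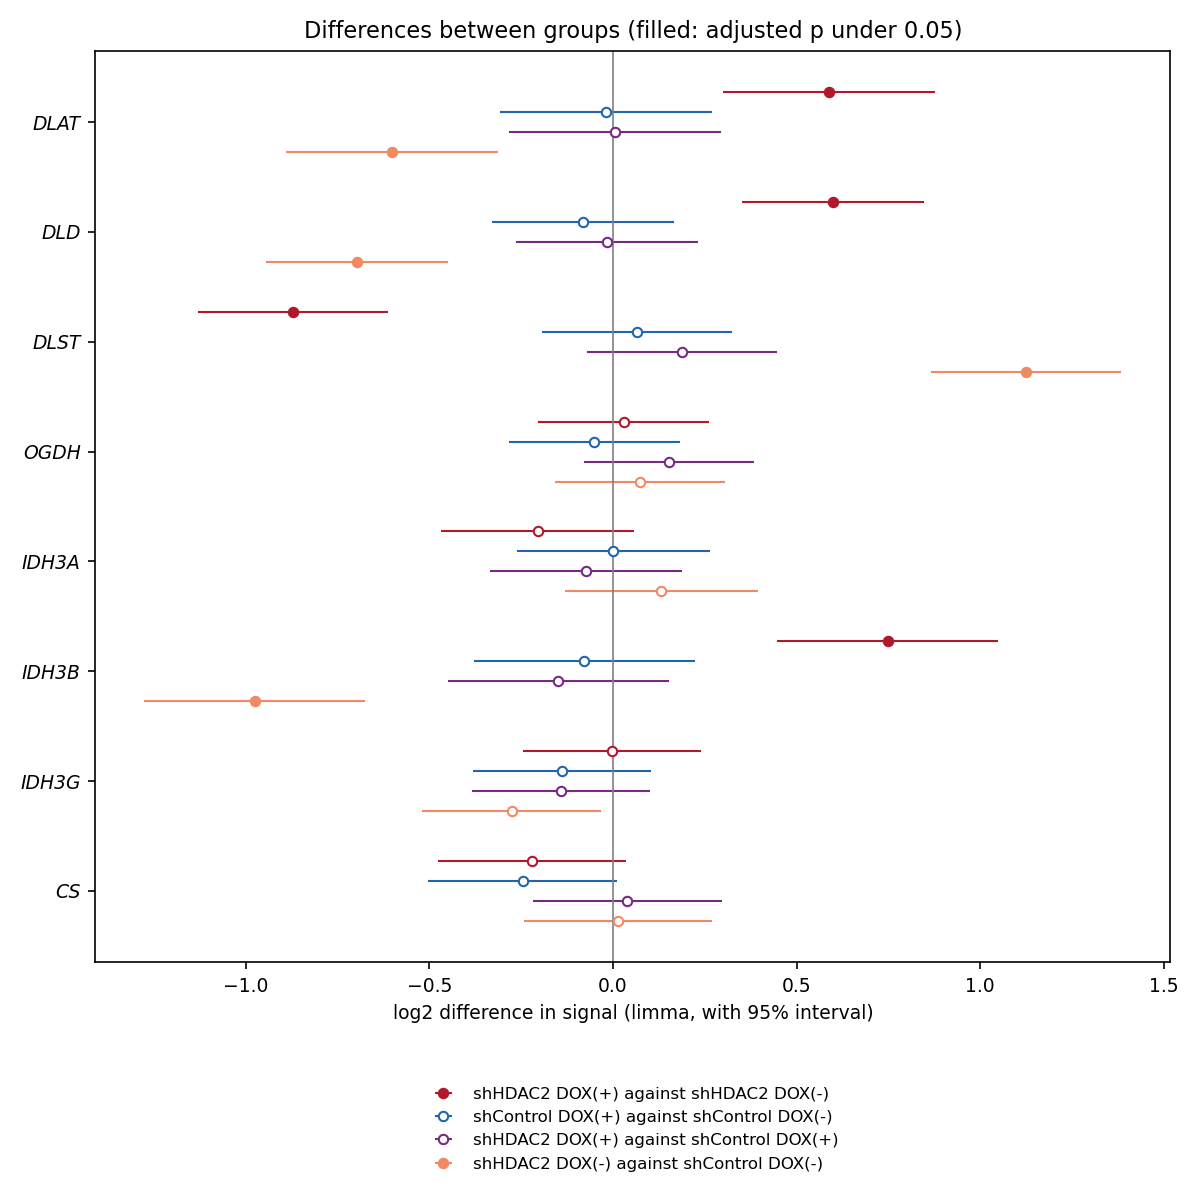
Log2 difference in signal (horizontal axis) with its 95% interval from limma for the 8 genes (vertical axis) in 4 comparisons, named with the numerator group first. Filled points passed an adjusted p of 0.05. DLAT, DLD, IDH3B and DLST have filled points only in the comparisons that use the shHDAC2 DOX(-) arrays.

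Without doxycycline, shHDAC2 cells differed from shControl cells in the same 4 genes. DLST was higher (difference 1.13, adjusted p = 8.37e-05), or 2.18-fold. IDH3B was lower (-0.98, adjusted p = 0.000492), or 1.97-fold, as were DLD (-0.70, adjusted p = 0.00112) and DLAT (-0.60, adjusted p = 0.00594). Thus 1 of the 8 genes was higher, against 14.2% of all genes, and 3 were lower, against 17.2% of all genes. IDH3G had a difference of -0.28 (95% interval -0.52 to -0.03, adjusted p = 0.0834). OGDH (0.07), IDH3A (0.13) and CS (0.01) did not pass. HDAC2 itself had a difference of -0.61 here (adjusted p = 0.00918), which did not pass without shControl DOX(-) replicate 1 (-0.55, adjusted p = 0.0627) or without shHDAC2 DOX(-) replicate 1 (-0.56, adjusted p = 0.0526), with its clusters averaged (-0.26, adjusted p = 0.167) or by the methods' t-test (adjusted p = 0.110).

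With both constructs on doxycycline, none of the 8 genes differed between shHDAC2 and shControl cells by limma, where 4.23% of all genes passed. The unadjusted limma p was under 0.05 for 0 of the 8 and for 2729 of all genes. HDAC2 was lower in shHDAC2 cells here (-0.999, adjusted p = 0.00724), a call lost without shControl DOX(+) replicate 1 (adjusted p = 0.0597) or 2 (0.0618) and without shHDAC2 DOX(+) replicate 1 (-0.80, adjusted p = 0.0531). It was also lost with every cluster tested (adjusted p = 0.0558), with its clusters averaged (-0.51, adjusted p = 0.0631) and by the methods' t-test (adjusted p = 0.374). The differences were 0.006 for DLAT (95% interval -0.28 to 0.29), -0.02 for DLD (-0.26 to 0.23), 0.19 for DLST (-0.07 to 0.45) and -0.15 for IDH3B (-0.45 to 0.15). The intervals of DLAT and DLD thus do not reach the estimated rises of 0.59 and 0.60 that these genes had in shHDAC2 cells upon doxycycline. For DLAT the interval ends at 0.295, close to the lower limit of that rise, 0.299. Both comparisons use the shHDAC2 DOX(+) arrays, and the difference between them was not tested. OGDH had 0.15 (-0.08 to 0.38) and IDH3G -0.14 (-0.38 to 0.10). The arrays of both groups did not overlap for DLST and OGDH, which were higher in shHDAC2 DOX(+) arrays, and for IDH3B and IDH3G, which were lower. With 2 arrays per group this is common: of all 14884 genes, 3255 were higher and 3977 lower without overlap. The shares among the 8 genes are near these. By the methods' t-test 2 of the 8 were under 0.05 unadjusted and 0 adjusted, against 1860 and 0 of all genes.

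Against all 4 shControl arrays the shHDAC2 DOX(+) values again gave 0 calls among the 8 genes by limma, where 6.5% of all genes passed. Unadjusted, 1 gene was under 0.05 by limma and 4 by the methods' t-test, of which 0 passed after adjustment. IDH3G was nearest, with a difference of -0.21 (95% interval -0.42 to -0.000256, adjusted p = 0.243), followed by DLST with 0.22 (95% interval -0.004 to 0.44, adjusted p = 0.251). With both shHDAC2 DOX(-) arrays left out of the fit, a setting chosen after the data were seen, 0 of the 8 genes passed in this comparison and in that with shControl DOX(+).

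Other genes of the pathway were taken from lists of related enzymes. Of 20 further subunits, assembly factors and enzymes of the pyruvate complex and the cycle, 7 were measured, and 3 rose (42.9%), 0 fell and 4 did not pass in shHDAC2 cells upon doxycycline. For this and the lists that follow, the shares of all genes are 15.7% higher and 16.1% lower, and in lists this short a single gene moves the share by several percent or more. PDHA1, the catalytic E1 subunit of the pyruvate complex, had mean signals of 6.80 ± 0.133 in shHDAC2 DOX(+) and 6.03 ± 0.075 in shHDAC2 DOX(-) arrays (SD, n = 2 each), a change of 0.77 (adjusted p = 0.00109). OGDHL, a relative of OGDH, rose by 0.72 and SDHAF4, an assembly factor of succinate dehydrogenase, by 1.04. SDHAF3 had a change of -0.64 (adjusted p = 0.0604), which was -1.004 without shHDAC2 DOX(-) replicate 1 and -0.27 without replicate 2. Its signal was low, with means of 3.11 in shHDAC2 DOX(+) and 3.75 in shHDAC2 DOX(-) arrays, and the median of all clusters was 3.66. PDHB, the partner of PDHA1 in E1, had -0.12 (adjusted p = 0.467) and is named here after its value was seen.

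The pyruvate complex is switched off by phosphorylation through PDK kinases and back on by phosphatases. Of 7 genes of these enzymes 2 were measured and both rose. PDPR, the regulatory subunit of the phosphatase, rose by 1.27 (adjusted p = 5.02e-05) and PDP1, a catalytic subunit, by 0.40 (adjusted p = 0.0164). PDPR had mean signals of 6.81 ± 0.111 in shHDAC2 DOX(+) and 5.54 ± 0.039 in shHDAC2 DOX(-) arrays (SD, n = 2 each), and 6.67 and 6.63 in shControl cells with and without doxycycline. PDP1 did not pass without shHDAC2 DOX(-) replicate 1 (adjusted p = 0.0796) or without shHDAC2 DOX(+) replicate 1 (0.0537) or 2 (0.0694). The PDK genes were not analysed here.

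Of 21 genes of pyruvate entry, anaplerosis and citrate use, 8 were measured, and 0 rose, 2 fell (25%, against 16.1% of all genes) and 6 did not pass. PC, the pyruvate carboxylase that refills oxaloacetate, had a change of -0.76 (adjusted p = 0.00197), and MPC2, a subunit of the mitochondrial pyruvate carrier, of -0.52 (adjusted p = 0.00501). GLUD1 (-0.34) and PCK2 (-0.25) did not pass. MPC1, the partner of MPC2 in the carrier, had -0.13 (adjusted p = 0.517) and was also named after its value was seen.

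Lipoate is the cofactor of DLAT and DLST and of the E2 enzymes of related complexes. Of 15 genes of its synthesis and of the other lipoate-dependent complexes, 10 were measured, and 2 rose (20%, against 15.7% of all genes), 3 fell (30%, against 16.1%) and 5 did not pass. DBT, the E2 of the branched-chain 2-oxoacid dehydrogenase complex, fell by 0.83 on the log2 scale (adjusted p = 0.000421), and BCKDK, the kinase that inhibits that complex, fell by 0.79 (adjusted p = 0.00155). MECR, an enzyme of mitochondrial fatty acid synthesis, fell by 0.72 (adjusted p = 0.00305). DHTKD1, an E1 of the 2-oxoadipate dehydrogenase complex, rose by 0.64 (adjusted p = 0.00216). Thus among the 3 lipoate-bearing E2 genes measured, DLAT rose while DLST and DBT fell.

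**Figure D3:**
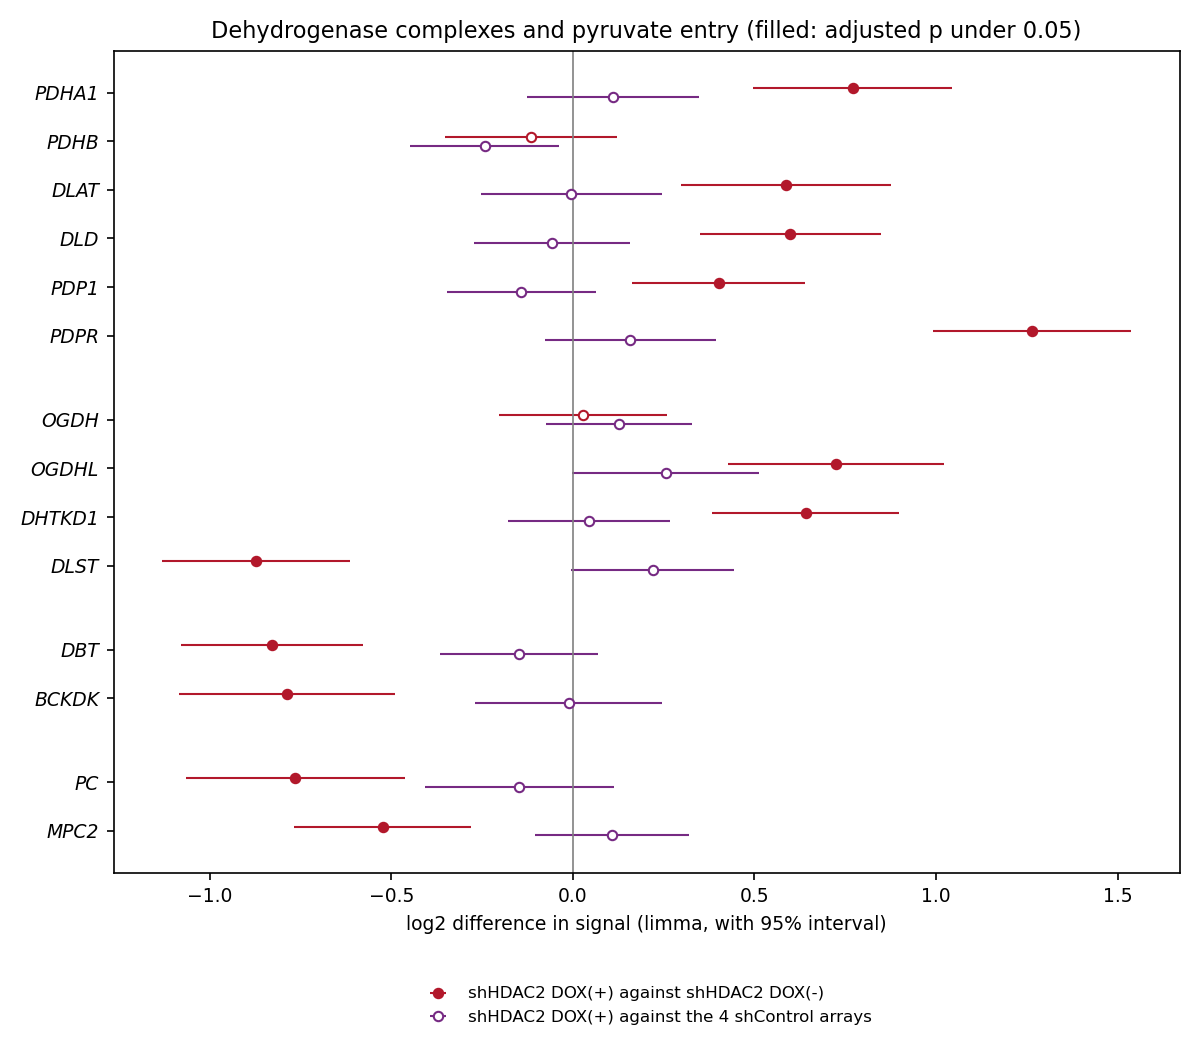
Log2 difference in signal with its 95% interval from limma (horizontal axis) for genes of the pyruvate, 2-oxoglutarate and branched-chain complexes and of pyruvate entry (vertical axis, groups set apart by gaps). DHTKD1, of the 2-oxoadipate complex, is placed with the 2-oxoglutarate genes. Red points compare shHDAC2 DOX(+) with shHDAC2 DOX(-) and purple points compare shHDAC2 DOX(+) with the 4 shControl arrays. Filled points passed an adjusted p of 0.05. Of the 14 red points 12 are filled, but the list genes shown include those with the largest changes in that comparison. Of all genes, 15.7% were higher and 16.1% lower there. Of the 14 purple points 0 are filled, where 6.5% of all genes passed.

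Of 94 names of respiratory chain and ATP synthase genes, which include older and newer symbols of the same genes, 21 were measured, and 2 rose (9.52%, against 15.7% of all genes), 3 fell (14.3%, against 16.1%) and 16 did not pass, so neither share exceeded the background. COX6A1 had a change of -0.61 and UQCRC2 of -0.50, and both passed. UQCRC2 did not pass without shHDAC2 DOX(-) replicate 1 (adjusted p = 0.0559) or shHDAC2 DOX(+) replicate 1 (0.0508), and COX6A1 had -0.37 with its clusters averaged, which did not pass (adjusted p = 0.106). COX8A had -0.48 (adjusted p = 0.127), and COX7B 0.52 (adjusted p = 0.0616), which passed without any 1 of the shControl arrays (0.0329 to 0.0486). Of 26 genes of mitochondrial biogenesis and import, 14 were measured, and 3 rose (21.4%, against 15.7% of all genes), 4 fell (28.6%, against 16.1%) and 7 did not pass. TIMM44, which links the import channel to its motor, rose by 0.73. The outer-membrane import genes TOMM22 (-0.69) and TOMM40 (-0.65) and the nuclear receptor gene ESRRA (-0.55) fell, ESRRA not passing without shHDAC2 DOX(-) replicate 1 (adjusted p = 0.0531) or 2 (0.0635) or without shHDAC2 DOX(+) replicate 1 (0.0915). Medians were 0.07 over the 21 respiratory genes and 0.13 over the 14 biogenesis genes. Against the 4 shControl arrays, COX7A2 (0.42, adjusted p = 0.0363) was the 1 gene of all these lists that passed, and it was named for that. It did not pass without any 1 of the 6 arrays compared (adjusted p = 0.0504 to 0.203).

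The genes whose pattern over the 8 arrays was most like that of DLST, by the root mean square difference of log2 signals after each gene was centred on its own mean, were NAXD (0.057), MXRA7 (0.065), CEND1 (0.072), MAP2K1 (0.083) and TCEAL8 (0.083). Their changes upon doxycycline in shHDAC2 cells, -0.99 to -0.84, are close to that of DLST because the genes were chosen for likeness to it over the same arrays. Among pairs of the 8 genes the most alike were CS with IDH3A (0.094), followed by DLD with DLAT and IDH3A with OGDH (0.1155 each). The least alike were DLST with IDH3B (0.848). The measure is not scaled, so genes that vary little come out alike. The 8 arrays spanned 0.361 for CS, 0.330 for IDH3A and 0.185 for OGDH.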

How the data were processed

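Total RNA of A172 cells in 4 groups of 2 biological replicates was labelled by the GeneChip WT protocol and hybridized to Human Gene 2.0 ST arrays. The methods name the RNeasy kit and Trizol for extraction. The log2 signals that the authors deposited had been made with RMA (Expression Console software), which corrects background and equalizes the arrays by quantiles. No software version is named in the labels or methods. Because of the quantile step, a common shift of all transcripts is invisible, and precision is limited by the number of arrays.

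Of 53617 transcript clusters, 16098 carried 1 gene symbol in GEO's platform annotation, which can be old, and 37519 were unnamed here. Keeping the cluster of highest mean signal for each gene left 14884 genes. Differences were fitted with limma 3.58.1 in R 4.3.3, using group means over all 8 arrays and moderated variances, two-sided, with Benjamini-Hochberg adjustment over all genes and a threshold of 0.05. P-values set a difference against the spread between these samples. In limma the spread of each gene is moderated by that of all genes (prior degrees of freedom 4.974, residual 4). The labels call the replicates biological and name no separate cultures. The methods give an unpaired two-tailed test for comparing 2 groups in general and none for the arrays in particular, so that test was also run and is named the methods' t-test.

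All 8 genes, HDAC2, up to 4 genes per list with the largest change in shHDAC2 cells, and the 5 genes most like the gene that changed most are named, and others where the text says so. The genes and lists were chosen with earlier results of these data known. The fit was tested on simulated data. Alternatives were the replicate block, single arrays left out, a fit of the compared arrays alone, a filter at the median signal, every cluster, another quantile normalization, median centring, a variance trend with robust moderation and the mean of all clusters of a gene. Promoter windows were found for 7 of the 8 genes in a RefSeq table of GRCh38.p14.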

Additional observations from a re-analysis of the deposited data

Results flagged for a closer look

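The doxycycline responses of shHDAC2 and shControl cells differed by an interaction test in limma for 4 genes. The difference was -0.938 on the log2 scale for DLST, 0.827 for IDH3B, 0.681 for DLD and 0.607 for DLAT. Over 15 alternatives the adjusted p of DLST was 0.000209 to 0.0184. That of IDH3B was 0.00147 to 0.0540, over the threshold with every cluster of the table tested. DLD had 0.00148 to 0.0537 and did not pass without shControl DOX(-) replicate 1 (0.0537), without shControl DOX(+) replicate 2 (0.0525) or with every cluster tested (0.0527). DLAT had 0.0135 to 0.140 and did not pass in 8 of the 15, among them the fits without either shControl DOX(-) replicate (0.119 and 0.0883), without either shControl DOX(+) replicate (0.0662 and 0.140) and those lacking replicate 2 of shHDAC2 DOX(-) (0.119) or of shHDAC2 DOX(+) (0.128). The shHDAC2 DOX(-) arrays, which stood apart from the other 6 over all clusters, enter all 4 differences.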

How the results depend on the processing

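No value of the 8 genes or the other named genes that passed the test changed direction under an alternative listed. Among the other named genes called upon doxycycline in shHDAC2 cells, CD68 and CD44 also passed by the methods' t-test after adjustment. Of the 8 genes, the count called upon doxycycline in shHDAC2 cells was 4 in the main model, 3 to 4 with single arrays left out, and 0 by the methods' t-test after adjustment (2 unadjusted). Without doxycycline, the count against shControl was 4 with every single array left out and 0 by the methods' t-test (4 unadjusted). For the difference between responses it was 4, 2 to 4 with single arrays left out, and 1 with every cluster tested, which adds rows to the adjustment. Against the 4 shControl arrays it was 0, and 1 with a variance trend and robust moderation (IDH3G, adjusted p = 0.0413). IDH3G also passed without doxycycline with that setting (adjusted p = 0.00653) and with the filter at the median signal (0.0492).

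Same-numbered replicates did not deviate together in every pair of groups (r of -0.00648 to 0.204), so the numbers were not taken to pair the samples. With the replicate block the count was 4 in shHDAC2 cells, 4 without doxycycline and 3 for the difference between responses, where DLAT had an adjusted p of 0.0502, and 0 in the other comparisons. COX7B and COX8A passed in shHDAC2 cells with the block (adjusted p = 0.0365 and 0.00676).

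Of all genes, limma called 4742 upon doxycycline in shHDAC2 cells (7828 with every cluster tested, 256 by the methods' t-test) and 4670 without doxycycline (7636 and 218). It called 629 between constructs on doxycycline (117 without shHDAC2 DOX(+) replicate 1, 118 and 121 without shControl DOX(+) replicates 1 and 2, 326 without shHDAC2 DOX(+) replicate 2, 204 with every cluster, 417 with the compared arrays alone, 1154 with the variance trend, 0 by the methods' t-test) and 967 against the 4 shControl arrays (193 without shHDAC2 DOX(+) replicate 1, 476 without replicate 2, 547 to 607 without single shControl arrays, 561 with every cluster, 1494 with the variance trend, 245 by the methods' t-test). In shControl cells it called 0, and 2 with the variance trend. The difference between responses uses all 8 arrays, so the compared-arrays fit and the methods' t-test gave it no separate value. Unadjusted, the methods' t-test had 4119 of all genes under 0.05 upon doxycycline in shHDAC2 cells and 4222 without doxycycline.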
